A study of Mus musculus with 6 samples.

Results

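Platelets labelled CTC41.5G-EVs were set against platelets labelled CTC41-EVs, 1 array of pooled mice on each side, by subtracting the second array from the first for every gene. These were 2 of the 6 Clariom D Mouse arrays of the series, which also holds a PBS array of platelets and the same 3 treatments in cells labelled megakaryocyte progenitors. CTC is the usual abbreviation of circulating tumour cell, and EVs that of extracellular vesicles, membrane particles that cells release. The sources used here do not say what the numbers in these names stand for, nor do they give the mice's strain, sex or age, or how much of the vesicles was given, by which route and when. The blood platelets of a group's mice were pooled, per the labels' protocols, and the number of mice in a pool is not given. Those protocols allow direct use of a pool or bead depletion of its leukocytes and erythrocytes, and do not say which each pool had. With 1 array a side no difference has a replicate check, so no p-value was computed and every difference describes 2 arrays. Within these limits the comparison asks how platelet RNA differed between the 2 vesicle groups.

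Platelets have no nucleus. They receive their RNA when megakaryocytes shed them, lose it as they age in the blood, and can take up RNA from cells and vesicles they meet. Their abundant transcripts encode adhesion receptors, granule proteins, a tubulin and actin cytoskeleton and the signalling enzymes of clotting. In RNA from a pool of cells, fewer cells of a type and less RNA per cell cannot be told apart.

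Both arrays carried the platelet transcripts their label names. All 12 defining platelet markers lay above the floor used here and all 12 were higher with CTC41.5G-EVs. The lowest signal among them on these 2 arrays was 8.96, for Gp9 with CTC41-EVs. Signals are given throughout on the deposited log2 scale, where a difference of 1 is 2-fold. Ppbp, a chemokine precursor of the alpha-granule, stood at 12.10 with PBS, 12.42 with CTC41-EVs and 12.77 with CTC41.5G-EVs. Pf4, platelet factor 4, stood at 12.35, 12.78 and 13.04 in the same order. The markers' median difference was 0.38, and 2 of the 12 (16.7%), Itgb3 and Gp9, passed 1.5-fold. Among all genes with a PBS signal of 9 to 10, 95.8% were higher in sign and 15.1% passed 1.5-fold. After the trend on signal described below was subtracted, 6 of the 12 markers were higher, with a median of -0.005. Leukocyte genes were mixed. Ptprc, which encodes the common leukocyte antigen CD45, had 3.98, 4.04 and 4.15, and the T cell gene Cd3e 4.62, 4.80 and 4.60. Others were well detected: Lyz2, the lysozyme of myeloid cells, had 9.94, 9.77 and 10.02, and Nkg7, a granule protein gene of cytotoxic lymphocytes, 7.36, 7.41 and 7.40. Ptprc and Cd3e lay under the floor, which is 5.07, the 75th percentile of all probes, and which a gene's mean over the 3 platelet arrays had to reach.

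Of 8247 genes at or above the floor, 230 (2.79%) were at least 1.5-fold higher with CTC41.5G-EVs and 73 (0.885%) at least 1.5-fold lower, so that 3.67% passed in either direction. The median difference over these genes was 0.07, and 61.0% were higher in sign. Differences were small: they ranged from -1.33 to 1.55, and 6 genes in each direction reached 2-fold. As a stand-in for replicate spread, the differences of 1083 olfactory receptor genes, which platelets are not known to use, had an SD of 0.38 with no floor. Their median signals were 3.08 with PBS, 3.07 with CTC41-EVs and 3.12 with CTC41.5G-EVs, under the floor, where differences spread more. Over all genes the SD was 0.34 at PBS signals of 2 to 3 and 0.23 at 5 to 6. The differences of the 8247 genes had an SD of 0.26. Protein-coding genes made up 139 of the 230 higher genes and 11 of the 73 lower ones. The threshold cut through a continuous range, since Bsg, the surface protein basigin, lay just inside it at 0.59 and the predicted gene Gm6395 just outside it at 0.58. On the other side the pseudogene Gm7180 lay inside at -0.59 and mmu-mir-8117 outside at -0.58. These 4 genes, like others below that the naming rule does not give, were chosen after their values were seen.

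The difference grew with signal between 4 and 10, and at signals of 6 to 11 it was larger in genes that platelets hold above progenitors than in genes at like levels in both. Among all genes with a PBS platelet signal of 4 to 5 the median was -0.02, and 1.27% were at least 1.5-fold higher. It was 0.13 at signals of 6 to 7, 0.25 at 7 to 8, 0.35 at 8 to 9 and 0.37 at 9 to 10, where 15.1% passed 1.5-fold, and then 0.22 at 11 to 12. No gene with a PBS signal of at least 8 and below 12 was 1.5-fold lower. At equal signal the size also differed with the kind of gene. Between 7 and 8, the 522 genes that PBS platelets held at least 2-fold above PBS progenitors had a median of 0.31, and the 141 within 2-fold of progenitors 0.04. Between 8 and 9 the medians were 0.38 over 310 genes and 0.18 over 62, and between 9 and 10 they were 0.41 over 174 and 0.22 over 34. Above the floor, 155 of the 2239 platelet-enriched genes (6.92%) were 1.5-fold higher and 8 lower, against 56 higher and 56 lower (1.01% each) of the 5542 genes within 2-fold of progenitors. The 466 genes at least 2-fold under progenitors, all signals above the floor together, did not lie lowest. Of these, 19 (4.08%) were 1.5-fold higher and 9 lower, with a median of 0.10. At signals of 5 to 6 their median was 0.13 against 0.12 for the enriched genes. Between 7 and 8, however, the 28 such genes had a median of -0.34, below both other kinds of gene. When a smooth trend of the difference on mean signal (loess) was subtracted, 73 genes (0.885%) were 1.5-fold higher and 129 (1.56%) lower, or 2.45% in either direction. All 73 belonged to the 230. Medians after this subtraction are given below beside most of the groups. Counts in the gene lists stand beside 2.79% of all genes at least 1.5-fold higher and 61.0% higher in sign. At PBS signals of 6 to 7, 7 to 8 and 8 to 9, 2.37%, 6.37% and 9.31% of all genes were 1.5-fold higher. In these 3 bins 69.5%, 81.2% and 91.8% were higher in sign. The split of calls was 75.9% higher as deposited and 81.2% when the arrays were scaled to the same median. It was 47.5% after quantile normalization, 53.7% when olfactory receptor genes were used to centre the arrays and 36.1% after the trend was subtracted. The genes above the floor changed too: 8247 as deposited and with the trend subtracted, 10081 with equal medians, 9858 after quantile normalization and 11944 with olfactory centring. The part of array scaling in the trend was not tested beyond these settings.

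**Figure D1:**
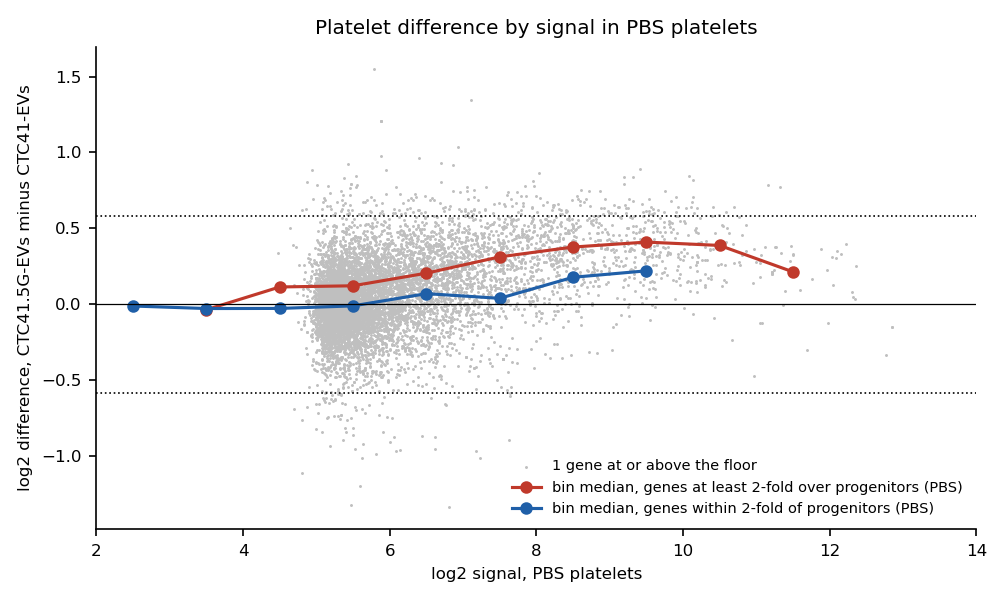
Each grey point is 1 of the 8247 genes at or above the floor, placed by its log2 signal in PBS platelets (x axis) and its log2 difference between CTC41.5G-EVs and CTC41-EVs platelets (y axis); dotted lines mark 1.5-fold. Medians in bins of 1 log2 unit holding at least 20 genes, over all genes with no floor, are red for genes at least 2-fold over progenitors in the PBS arrays and blue for genes within 2-fold: at signals of 9 to 10 they reach 0.41 and 0.22.

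Adhesion receptors, by which platelets hold on to vessel walls and to each other, were the list with the highest median among those of at least 10 genes. Of 27 on the arrays, 22 passed the floor and 21 of these were higher with CTC41.5G-EVs, with a median of 0.45. Of the 22, 3 (13.6%) passed 1.5-fold, against 2.79% of all genes and 9.31% of those with a PBS signal of 8 to 9. The list's median PBS signal was 8.78. Itgb3, the beta chain of the fibrinogen receptor, stood at 9.75 with PBS, 9.40 with CTC41-EVs and 10.15 with CTC41.5G-EVs, a difference of 0.75 or 1.68-fold. Its partner chain Itga2b stood at 9.47, 9.32 and 9.82, a difference of 0.50. For both chains the CTC41-EVs array was the lowest of the 3 and the CTC41.5G-EVs array the highest.

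The von Willebrand factor receptor showed the same order of arrays in 2 of its subunits. Gp5, glycoprotein V, had 8.93, 8.51 and 9.20, a difference of 0.69 (1.62-fold), and Gp9, glycoprotein IX, 9.01, 8.96 and 9.56, a difference of 0.60 (1.52-fold). The tetraspanin gene Cd9 differed by 0.58, Treml1, an alpha-granule receptor that moves to the surface on activation, by 0.57, and Selp, which encodes P-selectin, by 0.57. The collagen receptor gene Gp6 differed by 0.40 and Clec1b, the podoplanin receptor CLEC-2, by 0.28. The lowest member was Itga5, a fibronectin receptor chain, at -0.07. After the signal trend was subtracted the list's median was 0.13, with 18 of 22 members still higher in sign and 0 past 1.5-fold. Against PBS, whose array both vesicle comparisons share, the list's median was 0.25 with CTC41.5G-EVs and -0.15 with CTC41-EVs. In progenitors the list's median between the same treatments was 0.07, and Gp5, at 5.12 with CTC41-EVs and 4.41 with CTC41.5G-EVs there, lay near background.

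**Figure D2:**
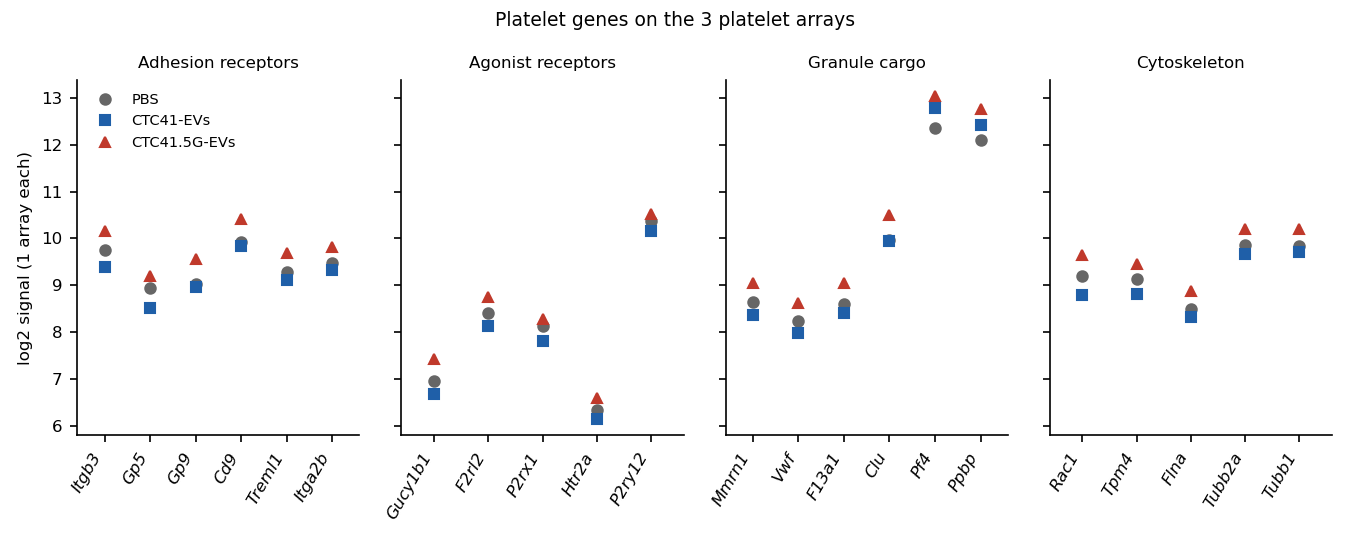
Log2 signal (y axis) of 22 platelet genes on the 3 platelet arrays, 1 point per array: PBS in grey, CTC41-EVs in blue and CTC41.5G-EVs in red. The red point is the highest for every gene drawn, by 0.75 over the blue point for Itgb3 and by 0.25 for Pf4, and Pf4 and Ppbp are lowest with PBS. The genes were picked with their values known, many as the largest differences of their lists, so this order describes the drawn genes only. Members that went down, such as Fn1 at -0.50 and F2rl3 at -0.31, are not drawn.

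Promoters are printed for 2 of the receptor genes that passed 1.5-fold, Gp5 above and the thrombin receptor gene F2rl2 described next, chosen after a motif search because both hold a match to each of 2 motif families, GATA and ETS, that megakaryocyte regulators bind. Sequences are those of RefSeq on GRCm38.p6, 250 bases before to 50 after the start. Capitals mark AGATAA, a motif of GATA factors (TTATCT on the opposite strand), or AGGAAG, a motif of ETS factors (read as CTTCCT on that strand).
Gp5 promoter, chr16:30310732-30311031, minus strand: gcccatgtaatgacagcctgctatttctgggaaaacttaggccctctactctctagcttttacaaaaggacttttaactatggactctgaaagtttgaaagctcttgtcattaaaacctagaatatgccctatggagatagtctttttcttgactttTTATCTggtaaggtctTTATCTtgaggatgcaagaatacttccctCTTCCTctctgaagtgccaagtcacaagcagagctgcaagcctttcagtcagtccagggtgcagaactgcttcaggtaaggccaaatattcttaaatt
F2rl2 promoter, chr13:95696670-95696969, plus strand: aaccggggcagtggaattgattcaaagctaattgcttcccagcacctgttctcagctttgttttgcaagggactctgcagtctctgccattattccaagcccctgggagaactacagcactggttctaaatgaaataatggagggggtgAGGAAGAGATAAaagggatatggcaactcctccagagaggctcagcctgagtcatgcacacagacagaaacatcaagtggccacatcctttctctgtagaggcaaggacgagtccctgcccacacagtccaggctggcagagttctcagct
The Gp5 promoter holds TTATCT 2 times and CTTCCT 1 time, and in F2rl2 the 2 motifs adjoin without overlap. Other promoters searched went the other way: that of Gp9 held 1 AGGAAG and 0 AGATAA, that of F13a1 held 3 and 0, and that of Mmrn1 held 0 of both. A match is a description of these letters only, and the shares differed little between the higher genes and the others above the floor. AGATAA on either strand was found in 6.78% of 118 promoters of genes at least 1.5-fold higher, 6.77% of 4771 promoters of genes above the floor and 11.4% of all 27025 promoters. AGGAAG was found in 31.4%, 32.6% and 35.1%. The adhesion receptors with a promoter in the table held AGATAA in 3 of 16 cases and AGGAAG in 9 of 16.

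Receptors for soluble agonists, the messengers that activate or calm platelets, were higher in 9 of the 12 cases above the floor, with a median of 0.40. Of the 12, 2 (16.7%) passed 1.5-fold, against 2.79% of all genes. Gucy1b1, a subunit of the nitric oxide receptor guanylyl cyclase, stood at 6.95 with PBS, 6.67 with CTC41-EVs and 7.42 with CTC41.5G-EVs, a difference of 0.74 (1.67-fold). F2rl2, the thrombin cofactor receptor PAR3, stood at 8.41, 8.13 and 8.74, a difference of 0.61. F2rl3, which encodes the signalling thrombin receptor PAR4, stood at 5.37, 5.80 and 5.48 and differed by -0.31, so the 2 thrombin receptor genes lay on opposite sides of 0. The ATP-gated channel gene P2rx1 differed by 0.47, the serotonin receptor gene Htr2a by 0.46 and the ADP receptor gene P2ry12 by 0.37. Prostaglandin E receptor Ptger3 and thromboxane receptor Tbxa2r both differed by -0.14. The list's median after the trend was subtracted was 0.10, in progenitors it was -0.01, and against PBS it was 0.13 with CTC41.5G-EVs and -0.21 with CTC41-EVs.

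Downstream of these receptors, kinases, adaptors and integrin-binding proteins of the ITAM and integrin pathways were higher in 39 of 41 cases, with a median of 0.32. Of the 41, 2 (4.88%) passed 1.5-fold, against 2.79% of all genes. Fermt3, kindlin-3, which platelets need to activate integrins, stood at 8.60, 8.36 and 9.04 with PBS first and CTC41.5G-EVs last, as in all such triplets, a difference of 0.68 (1.60-fold). Ptpn11, the phosphatase Shp2, stood at 9.45, 9.07 and 9.73, a difference of 0.66. Ptprj, a receptor phosphatase that acts on Src kinases, differed by 0.58 and the integrin activator talin, Tln1, by 0.56. The list's lowest difference was -0.08. After the trend was subtracted the list's median was 0.12, 34 of 41 members were higher and 0 passed 1.5-fold. G protein subunits and their RGS regulators were less one-sided, with 14 of 22 higher, a share near the 61.0% of all genes. None passed 1.5-fold, and the median was 0.15, or 0.01 with the trend subtracted. Gng11, a gamma subunit abundant in platelets, differed by 0.47 and Gna13, which drives shape change, by 0.45.

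Alpha-granule cargo, the clotting, adhesive and growth factors that activated platelets release, was higher in 26 of 31 cases, with a median of 0.28. Mmrn1, multimerin 1, which binds factor V in the granule, stood at 8.64, 8.37 and 9.04, a difference of 0.68 (1.60-fold). Vwf, von Willebrand factor, stood at 8.24, 7.97 and 8.63, a difference of 0.66, and F13a1, the fibrin-crosslinking factor XIII chain, at 8.60, 8.40 and 9.05, a difference of 0.65. Clu, clusterin, differed by 0.55. For all 4 genes the CTC41-EVs array was the lowest and the CTC41.5G-EVs array the highest, while PBS and CTC41-EVs lay within 0.01 of each other for Clu.

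Cargo did not form 1 block. Fn1, fibronectin, chosen here after its value was seen, stood at 7.47, 7.38 and 6.89 and was the lowest member, at -0.50. Vegfa, the vascular growth factor, had -0.20 and Timp2, a metalloproteinase inhibitor, also -0.20. Pf4 and Ppbp, the most abundant cargo genes, differed by 0.25 and 0.35, but by -0.20 and -0.10 after the trend was subtracted, when the list's median was 0.02 and 18 of 31 members were higher. The list's median against PBS was 0.21 with CTC41.5G-EVs and -0.09 with CTC41-EVs. Latent TGF-beta genes, whose product platelets store, were higher in 14 of 16 cases with a median of 0.11, or 0.03 with the trend subtracted. Lrrc32, the TGF-beta carrier GARP, stood at 5.81, 5.74 and 6.40, a difference of 0.65, and Tgfb1 itself differed by 0.30.

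Genes of granule assembly and release had lower medians than the cargo as deposited and higher ones with the trend subtracted, when granule biogenesis had 0.10, secretion 0.09 and cargo 0.02. These list differences were not tested. Granule biogenesis genes were higher in 10 of 14 cases (median 0.18, none past 1.5-fold), with Lamp1, a lysosomal and granule membrane protein, at 0.57, Slc18a2, the dense-granule serotonin importer, at 0.46 and Bloc1s3, a subunit of the granule-forming complex BLOC-1, at -0.43. The secretion machinery of SNARE proteins and their partners was higher in 15 of 17 cases with a median of 0.17. Sytl4, a Rab27 effector on granules, stood at 6.60, 6.37 and 7.06, a difference of 0.69 (1.61-fold), and Rab27b itself, the granule GTPase, differed by 0.46.

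The cytoskeleton that gives platelets their disc shape was among the higher groups. Tubulin, myosin and proplatelet genes were higher in 31 of 33 cases, with a median of 0.31. Of the 33, 2 (6.06%) passed 1.5-fold, against 2.79% of all genes and 6.37% of those with a PBS signal of 7 to 8. The list's median PBS signal was 7.16. Rac1, the small GTPase that drives lamellipodia, stood at 9.19, 8.80 and 9.64, a difference of 0.84 (1.79-fold). Tpm4, a tropomyosin of megakaryocytes, stood at 9.13, 8.81 and 9.45, a difference of 0.64. The actin crosslinker filamin A, Flna, differed by 0.56 and Tubb1, the platelet beta-tubulin, by 0.48. Actin regulators were higher in 34 of 39 cases with a median of 0.15. Among them, Actr3 of the actin-nucleating Arp2/3 complex stood at 8.23, 7.70 and 8.35 and the capping subunit Capza1 at 7.57, 7.01 and 7.66, so that for both the CTC41-EVs array stood apart below the other 2. With the trend subtracted the medians of the 2 lists were 0.09 and 0.07. Of the 33 tubulin, myosin and proplatelet genes, 26 were then higher and 0 passed 1.5-fold.

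Lipid mediator genes split by enzyme. Of 11 eicosanoid genes above the floor, 8 were higher, with a median of 0.10 that was also 0.10 with the trend subtracted. Alox5ap, the arachidonate-presenting protein FLAP, stood at 10.70, 10.49 and 11.13, a difference of 0.64. Pla2g4a, the phospholipase that frees arachidonate, had 0.57 and the platelet 12-lipoxygenase Alox12 had 0.54. Alox15, a lipoxygenase of macrophages and eosinophils, went the other way, with 7.39 on PBS, 6.83 on CTC41-EVs and 6.42 on CTC41.5G-EVs, a difference of -0.41.

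Genes that cells use to build and sort vesicles are of interest because vesicles were the treatment. Tetraspanins, membrane organisers that are common on vesicles, were higher in 12 of 18 cases, a share near the 61.0% of all genes, with a median of 0.23. Of the 18, 2 (11.1%) passed 1.5-fold, against 2.79% of all genes. Cd151 stood at 7.49, 7.20 and 7.87, a difference of 0.67, and Cd81 at 8.42, 8.33 and 8.94, a difference of 0.62. Cd63, the tetraspanin of dense granules and late endosomes, stood at 7.36 with PBS and at 7.18 on both vesicle arrays. ESCRT and vesicle biogenesis genes were higher in 17 of 24 cases, with a median of 0.14, and 1 passed 1.5-fold (4.17%). Their leading member Vps37b, an ESCRT-I subunit, stood at 6.86, 6.26 and 7.17, a difference of 0.92 (1.89-fold), the ninth highest among the genes ranked by the naming rule and 0.75 after the trend was subtracted. The other ESCRT-I subunit named by the rule, Vps28, differed by 0.54 and the ESCRT-II subunit Vps25 by 0.52. Rab GTPases were higher in 24 of 31 cases (median 0.16), and Rab1a, which acts between endoplasmic reticulum and Golgi, was the 1 member past 1.5-fold (3.23%), at 0.59. The ESCRT and Rab shares lie near the 2.79% of all genes. With the trend subtracted the medians were 0.07 for tetraspanins, 0.05 for ESCRT genes and 0.11 for Rab genes.

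**Figure D3:**
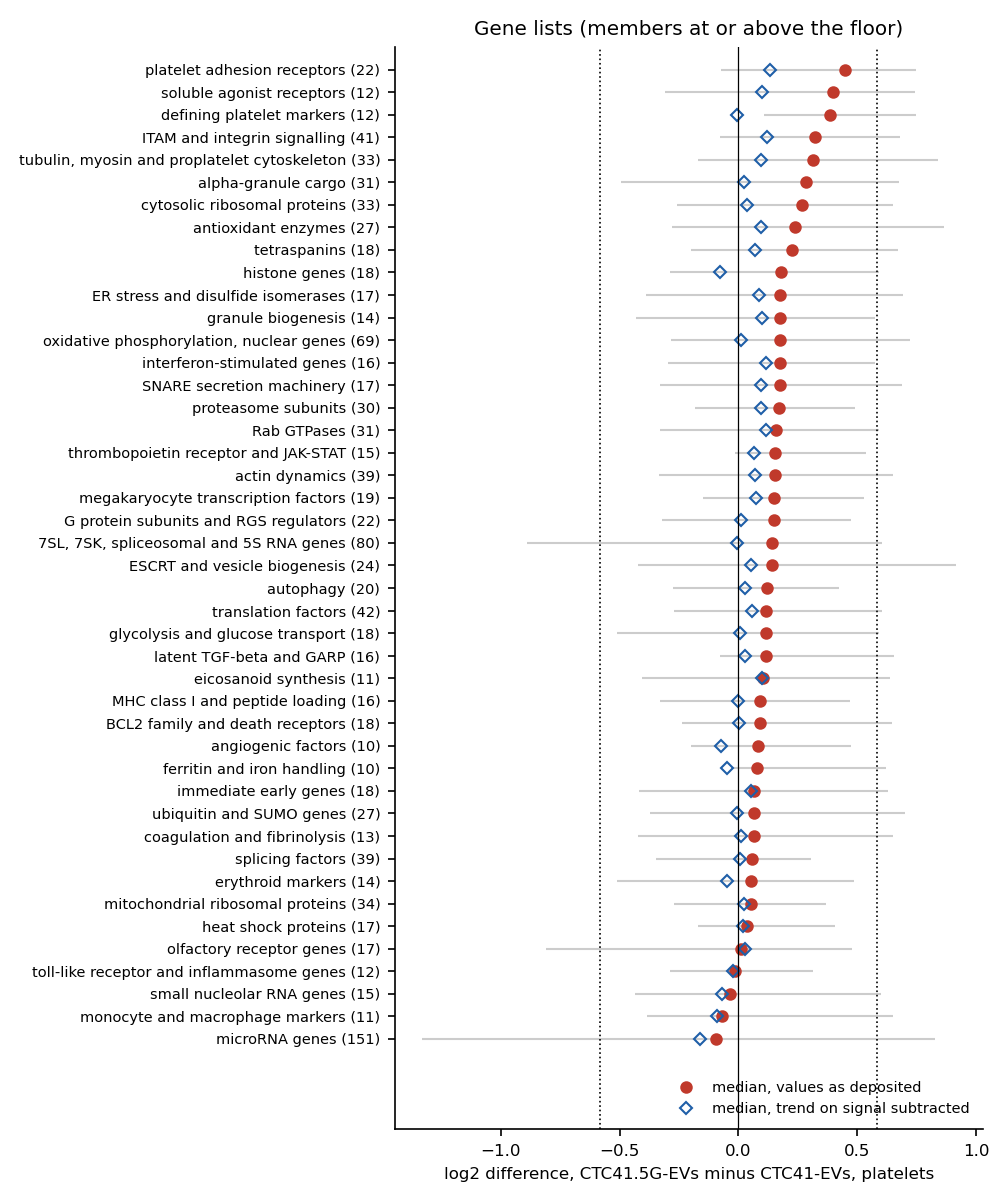
Median log2 difference between CTC41.5G-EVs and CTC41-EVs platelets (x axis) for each gene list with at least 10 members at or above the floor, whose number stands in brackets. Red dots use the values as deposited, blue diamonds the values after subtraction of the trend on signal, grey lines run from the lowest to the highest member as deposited, and dotted lines mark 1.5-fold. Adhesion receptors lead at 0.45 and go to 0.13, and microRNA genes are lowest at -0.10 and go to -0.16.

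Regulators of the megakaryocyte line were mostly higher, and none differed by 1.5-fold. Of 19 transcription factor genes, 15 were higher, with a median of 0.15 and none past 1.5-fold. Gfi1b, a repressor required for platelet production, stood at 6.88, 6.69 and 7.22, a difference of 0.53, Fli1, an ETS factor of megakaryocytes, differed by 0.52 and the small Maf protein gene Mafg by 0.48. Thrombopoietin receptor and JAK-STAT genes were higher in 13 of 15 cases, again with a median of 0.15, and both medians were 0.07 with the trend subtracted. Cbl, a ubiquitin ligase that damps this receptor, led the second list with 0.54.

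Translation and energy lists had their lower medians against PBS on the CTC41-EVs array, though single genes varied. Cytosolic ribosomal protein genes were higher in 28 of 33 cases, with a median of 0.27, but the list's median against PBS was -0.04 with CTC41.5G-EVs and -0.27 with CTC41-EVs. Rpl8 stood at 8.73, 8.11 and 8.76, a difference of 0.65, and Rpsa at 7.03, 6.50 and 7.08, a difference of 0.58, so for these 2 the PBS and CTC41.5G-EVs arrays lay within 0.06 of each other. Rpl37a, at 9.54, 9.25 and 9.86, a difference of 0.61, and Rps29, at 0.52, lay 0.32 and 0.25 above PBS with CTC41.5G-EVs. Ribosomal protein probes may also read near-identical pseudogenes. Nuclear genes of oxidative phosphorylation were higher in 53 of 69 cases with a median of 0.17, and against PBS the medians were 0.00 and -0.20. Atp5e, a subunit of ATP synthase, stood at 5.94, 5.87 and 6.60, a difference of 0.72, so that here the CTC41.5G-EVs array stood apart above the other 2. Uqcr11 of complex III differed by 0.63. With the trend subtracted the medians of the 2 lists were 0.04 and 0.01.

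Mitochondrially encoded transcripts, which RefSeq names without a prefix and which were chosen here after their values were seen, were unequal. ND2, a subunit of complex I, stood at 11.16, 10.46 and 11.24, a difference of 0.79 (1.72-fold), and ND3 at 11.33, 10.57 and 11.34, a difference of 0.77. COX2 of complex IV differed by 0.50, COX1 by 0.08 and ND6, which lies on the other strand of the mitochondrial genome, by -0.02. The ribosomal RNA mt-Rnr1 ran against ND2, with 12.77, 13.69 and 13.35, a difference of -0.33. The CTC41-EVs array was therefore the lowest of the 3 for ND2 and ND3 and the highest for mt-Rnr1.

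Redox and protein quality genes held several of the higher members. Antioxidant enzyme genes were higher in 20 of 27 cases, with a median of 0.24. Of the 27, 4 (14.8%) passed 1.5-fold, against 2.79% of all genes. Selenot, a selenoprotein of the endoplasmic reticulum, stood at 8.03, 7.64 and 8.50, a difference of 0.87 (1.82-fold). Prdx3, the mitochondrial peroxiredoxin, stood at 4.96, 5.02 and 5.71, a difference of 0.69 that the trend left unchanged, at 0.69. Prdx3 lay under the floor with PBS and with CTC41-EVs, and its mean reached the floor only through the CTC41.5G-EVs array. The direction of its difference is therefore not independent of the floor. Catalase, Cat, differed by 0.63 and the superoxide dismutase Sod1 by 0.61. After the trend was subtracted 1 of the 4, Prdx3, was still past 1.5-fold. Among all genes with a PBS signal of 4 to 5, the range of Prdx3, the median difference was -0.02. The trend thus had little to subtract there, and staying past 1.5-fold says little about Prdx3. Proteasome subunits were higher in 25 of 30 cases with a median of 0.17, or 0.10 with the trend subtracted, and none past 1.5-fold. Edem1, which directs misfolded glycoproteins to degradation, stood at 9.27, 8.76 and 9.45, a difference of 0.69, and the ubiquitin-like modifier gene Ufm1 at 6.57, 6.16 and 6.86, a difference of 0.70.

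Most immune and stress lists had lower medians. MHC class I genes had a median of 0.09 over 16 members and toll-like receptor and inflammasome genes -0.01 over 12, and the first was -0.01 when olfactory receptor genes centred the arrays and after quantile normalization. Interferon-stimulated genes were higher in 11 of 16 cases (median 0.17, or 0.12 with the trend subtracted, none past 1.5-fold), with the antiviral membrane protein gene Ifitm2 at 0.57. Immediate early genes were higher in 11 of 18 cases, a share near the 61.0% of all genes. Among them, the phosphatase gene Dusp1 stood at 6.81, 6.83 and 7.46, a difference of 0.63. Fosb, an AP-1 subunit, stood at 5.38, 5.65 and 5.23, a difference of -0.42. Cflar, an inhibitor of death receptor signalling, differed by 0.65, while the BCL2 family and death receptor list had 9 of 18 members higher. Cathepsin inhibitors, a family with very abundant platelet transcripts, diverged: Cst3, cystatin C, differed by 0.68 and Ctla2a by -0.30, at 11.69, 12.48 and 12.18.

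The largest differences upward were outside the platelet lists. The 15 highest included 6 genes of multicopy families on the sex chromosomes, known mainly from the testis, together with Pgrmc1 and the pseudogene Gm14567 on X. Astx6 on X stood at 5.79 with PBS, 4.55 with CTC41-EVs and 6.10 with CTC41.5G-EVs, a difference of 1.55 (2.93-fold), the highest of the 8247 genes. Astx1a, whose values are shared with Astx1b and Astx1c, differed by 1.21 and Astx3 by 0.88. On Y, Gm20854 stood at 7.11, 6.34 and 7.69, a difference of 1.34 (2.54-fold), the lncRNA Orly differed by 1.03 and Gm20827 by 0.97. For Astx6 and Gm20854 the CTC41-EVs array was the low one in platelets but not in progenitors, where Astx6 stood at 6.26, 7.15 and 6.76 and Gm20854 at 7.67, 8.87 and 8.94.

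Members of such families are near copies of each other, so their probes are not independent readings. Orly alone had 14 probe sets above the floor, the highest at 1.15. Of 36 genes on Y above the floor, 33 were higher and 9 (25.0%) passed 1.5-fold, with a median of 0.39, and of 380 on X, 26 (6.84%) passed it upward and 7 downward. The single-copy Y genes stayed at or under the floor: Eif2s3y, a translation factor gene, had 3.25, 3.45 and 3.55, the histone demethylase genes Kdm5d 3.75, 3.46 and 3.82 and Uty 4.46, 4.81 and 5.07. Xist, the RNA that silences an X chromosome in female cells, had 4.88, 4.69 and 4.29. The sex of the pooled mice is not given, and was not tested.

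Pgrmc1, a haem-binding membrane protein gene, stood at 5.87, 5.15 and 6.12, a difference of 0.97 (1.96-fold). Psenen, a subunit of the gamma-secretase protease, stood at 10.08, 9.48 and 10.33, a difference of 0.85, and was the brightest of the 15. Prss39, a protease gene known from testis, differed by 0.93. The remaining members were Gm13302, Gm13509, Gm23862 and Gm14567, which carry pseudogene, small nucleolar RNA or no RefSeq annotation, at 0.84 to 0.92. After the trend was subtracted, Pgrmc1 was at 0.95 and Psenen at 0.47.

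Genes lower with CTC41.5G-EVs were mostly short or non-coding. Of the 73, 43 lay under the floor on the CTC41.5G-EVs array itself, 8 were platelet-enriched and 68 stayed past 1.5-fold after the trend was subtracted. MicroRNA genes, which encode short RNAs that repress matching messenger RNAs, had 8 of 151 members above the floor at least 1.5-fold lower and 3 higher, with a median of -0.10 and 88 lower in sign. A raised share of lower calls was not particular to them. By RefSeq class, 8 of 152 microRNA genes (5.26%) and 10 of 136 small nucleolar RNA genes (7.35%) were lower. So were 8 of 283 lncRNA genes (2.83%) and 30 of 1611 pseudogenes (1.86%), against 0.885% of all genes and 0.199% of protein-coding ones. Calls upward were 3 for microRNA genes (1.97%), 7 for small nucleolar RNA genes (5.15%), 8 for lncRNA genes (2.83%) and 53 for pseudogenes (3.29%). Lower calls thus outnumbered higher ones for microRNA and small nucleolar RNA genes, equalled them for lncRNA genes and were fewer for pseudogenes. The microRNA median became 0.02 when the floor was raised to the 90th percentile. The values are those of the microRNA gene, and the mature strands have no separate value here. Mature sequences are shown for the genes past 1.5-fold whose probe lies on the gene's RefSeq chromosome, because the strands and their seeds, bases 2 to 8 in capitals, are what could tie such genes to targets. They are from RefSeq, GRCm38.p6, and no seed occurs 2 times among them.
mmu-miR-101c, chr9:3038680-3038698, minus strand: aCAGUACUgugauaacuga
mmu-miR-193b-5p, chr16:13449533-13449554, plus strand: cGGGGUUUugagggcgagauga
mmu-miR-193b-3p, chr16:13449570-13449591, plus strand: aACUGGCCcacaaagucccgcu
mmu-miR-129-2-3p, chr2:94241376-94241397, minus strand: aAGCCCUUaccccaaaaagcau
mmu-miR-129-5p, chr2:94241419-94241439, minus strand: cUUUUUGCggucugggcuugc
mmu-miR-30e-5p, chr4:120772660-120772681, minus strand: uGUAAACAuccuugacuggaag
mmu-miR-30e-3p, chr4:120772618-120772639, minus strand: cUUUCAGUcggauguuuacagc
mmu-miR-6994-5p, chr19:11923733-11923755, plus strand: aCAAAGGUgggugaagccgguga
mmu-miR-6994-3p, chr19:11923778-11923798, plus strand: aACGAUCUucuccgucuuugc
mmu-miR-219c-5p, chr17:34025012-34025033, plus strand: gGACGUCCagacgcaacucucg
mmu-miR-219c-3p, chr17:34025050-34025071, plus strand: cGAGAAUUgcguuuggacaauc
mmu-miR-27a-5p, chr8:84208685-84208706, plus strand: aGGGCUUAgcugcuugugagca
mmu-miR-27a-3p, chr8:84208727-84208747, plus strand: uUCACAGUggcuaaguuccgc

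Mir101c, the lowest of the 8247 genes, stood at 6.80 with PBS, 6.62 with CTC41-EVs and 5.29 with CTC41.5G-EVs, a difference of -1.33, so CTC41-EVs was 2.52-fold higher. In progenitors it differed by -0.03. Mir193b stood at 6.14, 7.06 and 6.10, a difference of -0.96, where the CTC41-EVs array was the high one and PBS and CTC41.5G-EVs lay within 0.04. Mir129-2 differed by -0.86, Mir30e by -0.75 and Mir6994 by -0.74, while Mir219c and Mir27a were both 0.73 higher. Mir466f-1 was the highest microRNA gene, at 0.83, but its other probe differed by 0.07. The platform's names were less certain for 2 further genes. Mir3098, at -1.32, and Mir8115, at -0.95, have probes whose names place them on chromosomes 2 and 11, whereas RefSeq has these genes on 6 and 5, and the other Mir3098 probe differed by 0.35. Mir8117, at -0.60, has a probe with no chromosome in its name and completes the 8. The separate entry mmu-mir-8117 bears the same microRNA name and lay just outside the threshold, at -0.58. Its probe name places it on chromosome 5, where RefSeq has Mir8117.

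Only 11 protein-coding genes were 1.5-fold lower, and Prg4 led them. Prg4, lubricin, a lubricating proteoglycan, stood at 6.01 with PBS, 5.86 with CTC41-EVs and 4.96 with CTC41.5G-EVs, a difference of -0.90 that made CTC41-EVs 1.87-fold higher. It lay at 3.85 to 3.86 on all 3 progenitor arrays. The others were Olfr686, Mphosph6, Lypd3, 2810459M11Rik, Crabp1, 2510002D24Rik, Smtnl1, Hoxb9, Ednrb and Topors, at -0.81 to -0.59, with a highest signal of 6.21, that of Olfr686 with CTC41-EVs. The remaining names among the 15 lowest were pseudogenes, lncRNA, a small nucleolar RNA and a T cell receptor segment pseudogene. Gm12040, a pseudogene, stood at 5.59, 5.62 and 4.43, a difference of -1.20, and Gm25564, a small nucleolar RNA gene, at 4.80, 5.88 and 4.77, a difference of -1.11.

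**Figure D4:**
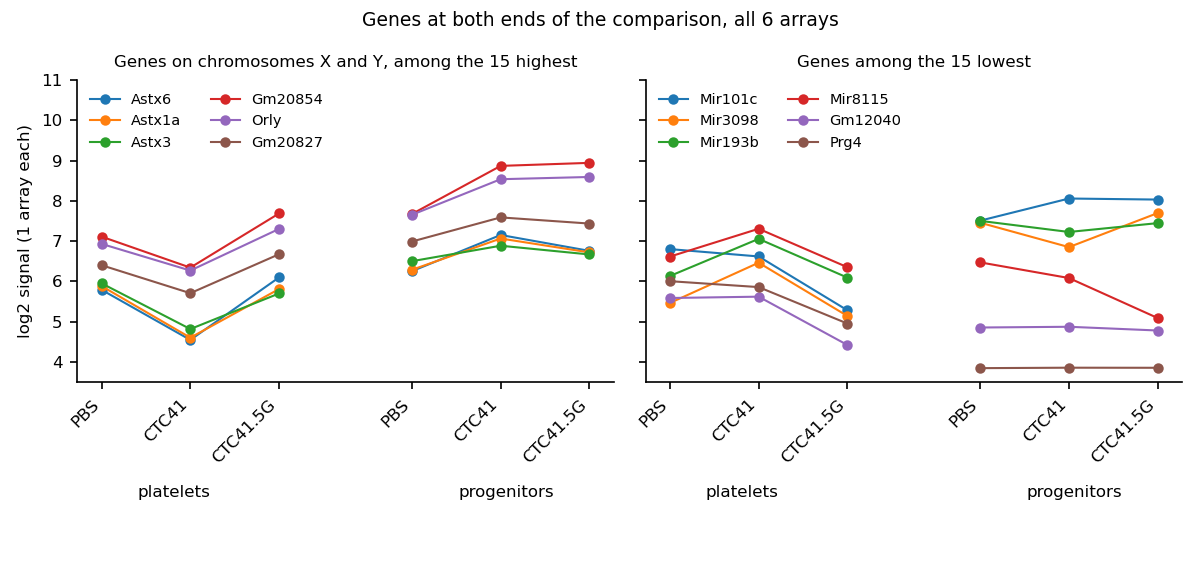
Log2 signal (y axis) on all 6 arrays, platelets at the left and progenitors at the right of each panel, 1 array per point, with lines joining the arrays of a cell type. In the left panel 6 genes on chromosomes X and Y dip on the CTC41-EVs platelet array, Astx6 to 4.55, and do not dip on the CTC41-EVs progenitor array; in the right panel 6 of the 15 lowest genes are lower with CTC41.5G-EVs in platelets, Mir101c at 5.29.

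Markers of other cells were examined beside these differences. The summed signal of the 10 pan-leukocyte genes on the arrays was 9.84 with PBS, 9.80 with CTC41-EVs and 10.22 with CTC41.5G-EVs (log2 of the sum). Of 6 members above the floor 5 were higher, and Itgam was lower, at -0.23. The largest term was Laptm5, a lysosomal protein of blood cells, at 8.48, 8.37 and 9.05, a difference of 0.69, while Ptprc stayed near background. Of 15 late granule and S100 genes of neutrophils, the sum was 9.03, 9.20 and 9.35, and 4 of 6 above the floor were higher. Mmp8, a neutrophil collagenase under the floor on average, stood at 4.06, 4.29 and 5.01, and Ltf, lactoferrin, at 4.64, 4.66 and 5.26, the largest differences upward in the list. Camp, cathelicidin, above the floor, stood at 5.85, 6.08 and 5.77, a difference of -0.31, and Il1r2, a decoy receptor for interleukin 1, under the floor, differed by -0.35. Ly6g, the defining surface marker, had 4.01, 4.30 and 4.14. Primary granule genes of neutrophils had 2 members above the floor, with a median of -0.01. Monocyte and macrophage genes were higher in 5 of 11 cases, with a median of -0.07 and a sum of 10.93, 10.80 and 11.05. They ran from -0.38 for C1qa to 0.65 for F13a1, which is also counted as granule cargo here.

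Erythroid genes as a list differed little between the 2 vesicle arrays, though single members went both ways. The sum over 22 genes was 11.69, 11.57 and 11.66, with 9 of 14 higher and a median of 0.05, and Alas2, which starts haem synthesis in red cells, stood at 9.88, 9.82 and 9.85. Bpgm, the red cell enzyme that makes 2,3-bisphosphoglycerate, was lowest at -0.51, and Tspo2 had -0.43. Slc4a1 was highest at 0.48, with 7.96, 7.56 and 8.04, and Bnip3l had 0.42. The 4 haemoglobin probe sets, each shared by several globin genes, differed by -0.15 to 0.10 between the vesicle arrays. Both vesicle arrays lay above PBS, CTC41-EVs by 0.30 to 1.23 and CTC41.5G-EVs by 0.39 to 1.09. Lung and epithelial genes included a graded case. Sftpc, surfactant protein C of the lung alveolus, stood at 6.05 with PBS, 7.09 with CTC41-EVs and 7.72 with CTC41.5G-EVs, a difference of 0.63, and Scgb1a1, an airway secretory protein, at 4.64, 5.22 and 5.72, a difference of 0.50. The keratin gene Krt19 went the other way, at -0.33, and the list's median over 6 genes was -0.04. The part of other cells in the platelet differences was not tested.

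In progenitors fewer genes passed 1.5-fold between the same treatments. Of 10858 genes above the floor there, 66 (0.608%) were 1.5-fold higher and 85 (0.783%) lower with CTC41.5G-EVs, 1.39% in either direction, with a median of 0.08. Of the 230 genes higher in platelets, 160 were also higher in sign in progenitors, 4 by 1.5-fold, and 3 were 1.5-fold lower. Over all 8247 genes the share higher in sign in progenitors was 67.8%. Across these genes, which are not independent replicates, the differences in the 2 cell types had a Pearson r of 0.11. Itgb3 was 0.75 higher in platelets and 0.28 in progenitors, Rac1 0.84 and 0.27, Vps37b 0.92 and -0.20, and Gp5 0.69 and -0.71. With 1 array for each group, whether the cell types differ could not be tested.

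**Figure D5:**
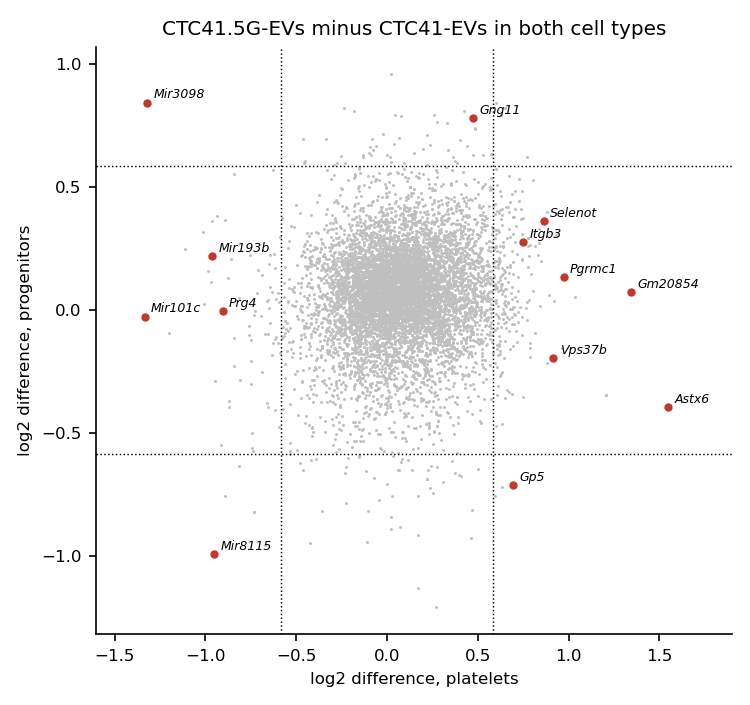
Log2 difference between CTC41.5G-EVs and CTC41-EVs in platelets (x axis) and in megakaryocyte progenitors (y axis), 1 grey point for each of the 8247 genes above the platelet floor; dotted lines mark 1.5-fold and red points are named genes. Gm20854 lies at 1.34 in platelets and 0.08 in progenitors, Mir101c at -1.33 and -0.03, and Mir8115 is low in both.

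The position of the PBS array completes the picture of the 2 vesicle arrays. Against PBS, 53 of the 8247 genes (0.643%) were 1.5-fold higher and 108 (1.31%) lower with CTC41.5G-EVs, or 1.95% either way, with a median of 0.01. With CTC41-EVs, 37 (0.449%) were higher and 193 (2.34%) lower, with a median of -0.06. At PBS signals of 8 to 9 the median was 0.07 for CTC41.5G-EVs and -0.27 for CTC41-EVs. These 2 comparisons share the PBS array, and the difference described here is one minus the other, so their values are set side by side only. For genes such as Actr3, Rpl8, ND2 and Astx1a the PBS and CTC41.5G-EVs arrays were the closer pair, and for Clu, Gp9 and Cd9 the PBS and CTC41-EVs arrays were.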

How the data were processed

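RNA of pooled platelets and megakaryocyte progenitors was hybridised to 6 Clariom D Mouse arrays, 1 per group. The labels' protocols give the RNA input as 3 ng and also as 5 ng, and name 2 extraction kits. The deposited log2 signals, from 0.233 to 14.06, were made by the authors with Affymetrix Expression Console 1.4.1.46, per the submitters' processing notes, while the series design names MAS5.0. The scaling between arrays and the genome build were not given in the sources used here. Array medians were 4.00, 4.05 and 4.02 in platelets, and the 2 platelet arrays compared correlated at 0.961 over probes. Arrays carry no read depth, and their number limits the precision.

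Of 72688 probes, 30604 named 1 gene, 2146 several and 39938 none, and the first kind gave 30142 genes, with symbols updated through RefSeq (GRCm38.p6; 22815 probes matched, 827 updated). A gene with several probes took the one with the highest mean. Values were used as deposited, with no pseudocount. Genes counted had a mean over the 3 platelet arrays of at least 5.07, the 75th percentile of probe means. They were called at 1.5-fold, with no test; of them 181 share all values with another gene. The floor, difference and call rule were checked on simulated data. That check used 2-fold changes in genes clear of the floor and no trend on signal. It does not show how the rule works near 1.5-fold or near the floor. The trend on signal was a lowess fit (span 0.2, statsmodels 0.14.6), which was not checked in that way. Of 39938 probes with no gene name, 6013 lay above the floor and were not analysed further.

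Named genes are the 15 highest and 15 lowest differences (genes with identical values once), the 4 largest of each of 61 lists and the defining markers. Other genes named were chosen after their values were seen. Members, lists and alternatives were chosen with earlier results of these data known. Promoters and microRNAs were matched by symbol: 16 of 22 adhesion receptors above the floor had a promoter, and Mir466f-1 had no sequence entry.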

Additional observations from a re-analysis of the deposited data

Results flagged for a closer look

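Mir3098 was the gene named in the report that lay above the floor in both cell types and passed 1.5-fold in opposite directions between the same treatments. It differed by -1.32 in platelets, where it stood at 5.47 with PBS, 6.47 with CTC41-EVs and 5.15 with CTC41.5G-EVs, and by 0.84 in progenitors. The difference between the cell types was not tested, since each group was 1 array. The probe name places it on chromosome 2, RefSeq has the gene on chromosome 6, and the second probe of the gene differed by 0.35 in platelets.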

How the results depend on the processing

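As deposited, 230 genes were higher and 73 lower. The higher count was 6 at a 2-fold threshold, 73 after the signal trend was subtracted, 87 after quantile normalization, 139 over protein-coding genes and 706 without a floor. The lower count was 6 at 2-fold, 11 over protein-coding genes, 16 with the floor at the 90th percentile, 129 after the trend was subtracted, 155 with arrays centred on olfactory receptor genes, 205 with the floor at the 50th percentile and 691 without a floor. The 73 and 65 of the 87 higher genes under the trend and quantile settings were among the 230. Other counts stayed within 1.5 times the deposited ones, among them 336 higher and 78 lower with arrays scaled to the same median. The medians of adhesion receptors ranged from 0.13 to 0.47 over all settings. No paired analysis was possible because each group is 1 array. Leaving out a replicate was impossible for the same reason. Near the floor the signal over background limits what can be read: 34 of the higher and 43 of the lower genes lay under it on 1 of the 2 arrays.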
